A study of Drosophila melanogaster with 4 samples.

Results

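Wide H3K27ac domains are single deposited H3K27ac peaks of 3000 bp or more (end minus start), kept where they lay on 2L below 22 Mb, on 2R above 5.7 Mb, on 3L below 23 Mb, on 3R above 4.2 Mb or on X below 22 Mb of the dm6 build. The rule found 99 domains among 23793 Cut knockdown peaks and 545 among 23551 control peaks within those limits. Together these were 644 of the 75208 peaks in the 4 deposited lists. The peaks came from Drosophila melanogaster neuroblast nuclei, labelled Cut_KD or Control for genotype, with 1 H3K27ac and 1 H3K27me3 library each. Neuroblasts divide asymmetrically to make the neurons and glia of the fly, and the study, by its title, concerns how Cut, a homeodomain transcription factor, and cohesin act on chromatin in neuroblast death. Both genotypes carried wor-gal4 with UAS-dsRed. This driver is active in the nervous system from stage 11, embryos of mixed age from a 16 h collection at 25 °C were pooled (about 1 g a genotype), and the dsRed-positive nuclei were sorted. The labels put purity at 50% or more, so part of each library may stem from other embryonic cells, and they give neither the knockdown construct nor the control construct.

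H3K27ac is acetylation of histone H3 at lysine 27, placed by CBP/p300 acetyltransferases at active promoters and enhancers. Where active elements lie close together, or where acetylation spreads along a gene, a peak caller returns one long stretch, and such stretches often lie over strongly transcribed or cell identity genes. H3K27me3 is trimethylation of the same lysine by Polycomb repressive complex 2, so a single histone tail carries either mark but not both. In pooled nuclei, a locus with both marks on different nucleosomes or alleles of the same cell and a locus with each mark in different cells cannot be told apart.

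Every value below compares 1 library with 1 library, so no test between genotypes was possible, no difference has a replicate check, and the intervals given (exact Clopper-Pearson, 95%) cover counting error only. The deposited lists hold no read counts, so depth is unknown. A stretch outside a peak is below the authors' threshold and is not shown to lack the mark.

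Wide domains were fewer and narrower in the Cut knockdown. The domains were chosen by peak width in these same H3K27ac lists, so their number, width and covered length are given as a description. They made up 0.416% of knockdown peaks (interval 0.338 to 0.506%) and 2.31% of control peaks (2.13 to 2.51%). Their covered length was 358.603 kb in the knockdown, 2.63% of all bases under knockdown H3K27ac within the limits, against 2197.9 kb in the control, 11.0% of the bases under control H3K27ac. The whole width distribution moved with them: narrower peaks had a median of 433 bp in the knockdown and 612 bp in the control, and all H3K27ac peaks covered 13.7 Mb in the knockdown and 19.9 Mb in the control. The part of this general difference in the domain counts was not tested.

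**Figure D1:**
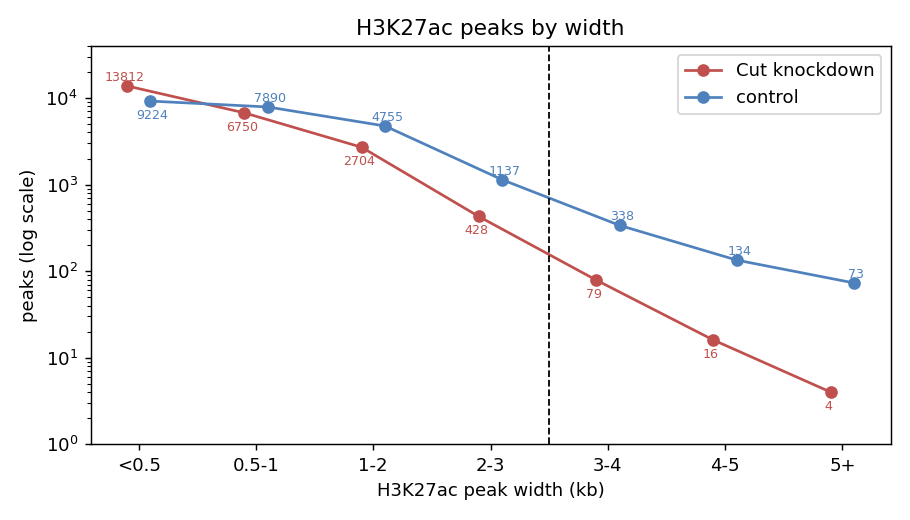
Number of H3K27ac peaks within the arm limits (y axis, log scale) by peak width in kb (x axis) in 1 Cut knockdown library (red) and 1 control library (blue), with the 3 kb bound as a dashed line. The knockdown list had more peaks below 0.5 kb (13812 against 9224 in the control) and fewer in every wider class, down to 4 against 73 at 5 kb or more.

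The domains had a median width of 3390 bp in the knockdown (widest 9097 bp) and 3728 bp in the control (widest 15923 bp). The deposited fold enrichment, which is the authors' own value for each peak, had a median of 2.30 among knockdown domains (range 1.81 to 3.27) and 1.98 among control domains (1.62 to 2.35). Within each list the wide domains differed little from narrower peaks in fold, whose medians were 2.14 in the knockdown and 1.93 in the control. The folds of the genotypes are set side by side only, since their scales may differ.

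Domains lay on every arm. The X held 14 of 99 knockdown domains (14.1%, interval 7.95 to 22.6%) and 47 of 545 control domains (8.62%, 6.41 to 11.3%), while narrower peaks were at 14.2% on X in the knockdown and 13.3% in the control. The median distance from one domain to the next on its arm was 536.695 kb in the knockdown and 92.553 kb in the control, and 4 of 94 knockdown gaps and 91 of 540 control gaps were under 10 kb.

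At the width bound, the narrowest knockdown domains were at sav (3000 bp), aft (3002 bp) and Oseg2 (3004 bp), and the widest knockdown peaks left out measured 2999 bp at hep, 2991 bp at kis and 2984 bp in a stretch of 2R without a protein-coding gene. In the control the narrowest domains were at CG10055 (3000 bp), CG11927 (3003 bp) and CG5098 (3003 bp), and the widest peaks left out were at Mi-2 (2996 bp), GluRIIC (2993 bp) and CG8281 (2992 bp).

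Nearly every wide domain of one genotype carried some H3K27ac in the other. A control peak overlapped all 99 knockdown domains (100%, interval 96.3 to 100%), against 65.6% of knockdown peaks of any width. A knockdown peak overlapped 536 of 545 control domains (98.3%, 96.9 to 99.2%), against 59.4% of control peaks of any width. Longer intervals meet a peak more readily, so the covered share of bases is given too: 76.0% of the bases of knockdown domains lay under control H3K27ac and 48.7% of the bases of control domains under knockdown H3K27ac, while for narrower peaks these shares were 55.1% of knockdown bases and 36.8% of control bases.

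Overlap with a domain that was itself wide in the other genotype was found at 44 of 99 knockdown domains (44.4%, 34.5 to 54.8%, against 5.02% of knockdown peaks of any width) and at 45 of 545 control domains (8.26%, 6.09 to 10.9%, against 0.628% of control peaks of any width). When the 99 widest peaks of each list were compared, 23 in each overlapped one of the other (23.2%, 15.3 to 32.8%). The control set then started at 4751 bp.

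Most control domains lay over loci that the knockdown list split into shorter peaks, which choosing domains by control width makes likely. Among 545 control domains, 431 met 2 or more knockdown peaks (79.1%, interval 75.4 to 82.4%), against 7.3% of control peaks of any width. Of 99 knockdown domains, 44 met 2 or more control peaks (44.4%, 34.5 to 54.8%), against 1.64% of knockdown peaks of any width. A longer interval has room for more peaks. The 500 control domains without a wide knockdown counterpart had a median of 44.4% of their bases under knockdown H3K27ac (range 0 to 94.5%). Their widest knockdown peak had a median of 1189.5 bp, was below 1000 bp at 176 of them and at least 2000 bp at 90. The 55 knockdown domains without a wide control counterpart were covered more fully, with a median of 58.7% under control H3K27ac (27.3 to 93.3%) and a widest control peak with a median of 1720 bp.

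**Figure D2:**
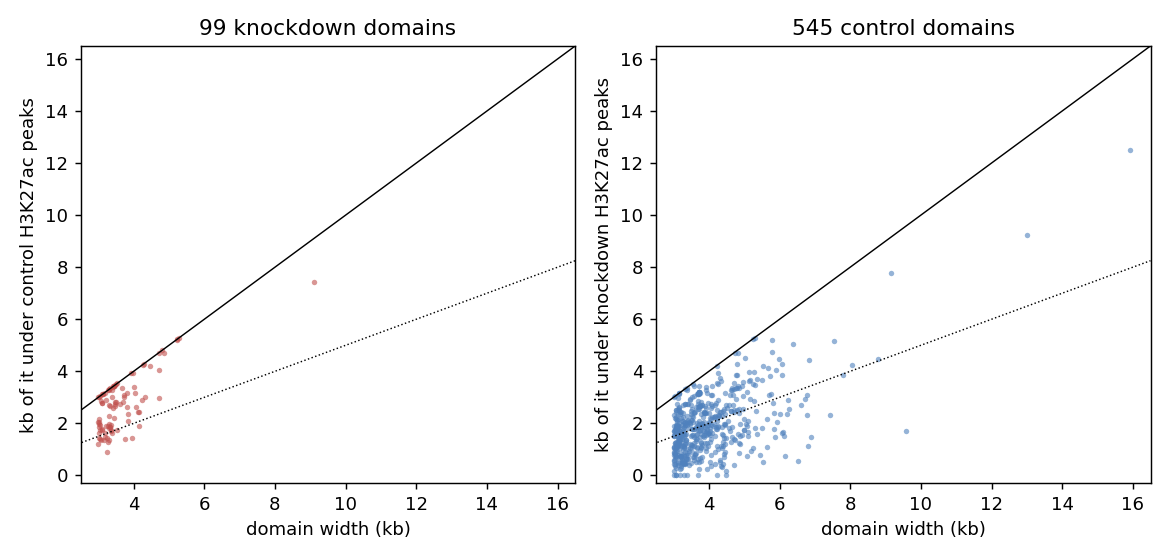
Bases of each wide domain that lay under H3K27ac peaks of the other genotype (y axis, kb) against its width (x axis, kb), for the 99 knockdown domains (left, red) and the 545 control domains (right, blue), 1 point a domain. The solid line is full cover and the dotted line 50% cover. At least 50% cover was reached by 84 of 99 knockdown domains and 257 of 545 control domains.

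At least 50% cover by the other genotype was reached by 84 knockdown domains (84.8%, against 51.7% of knockdown peaks of any width) and 257 control domains (47.2%, against 35.1% of control peaks of any width). Joining all overlapping domains gave 599 loci, of which 44 were wide in both genotypes, 55 in the knockdown alone and 500 in the control alone. Over all 599, H3K27ac covered 1277.52 kb in the knockdown and 2319.62 kb in the control.

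The widest knockdown domain was at tara (3R:16250540-16259636), a trithorax-group gene of the SERTAD family. It ran for 9097 bp at a fold of 2.79, and control peaks covered 7432 bp of it in 3 pieces. Wide control domains made up 5855 bp of that cover, among them one of 5027 bp that reached past the knockdown domain. The control list was thus split within the knockdown domain. The 5027 bp control domain in turn met another, separate knockdown peak. A second knockdown domain of 3357 bp lay inside the same gene.

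Next in width were domains at CG44153 (5286 bp), CG42340 (5231 bp) and bru3 (5227 bp), the last a member of the Bruno family of RNA-binding proteins. All these were present at nearly the same place and length in the control, at 5301 bp for CG44153, 5250 bp for CG42340 and 5797 bp for bru3. The widest also took in Pgk with Bacc (4863 bp), Pgk being a glycolytic kinase, Pex5 with CG14803, MED18 and Gcna (4728 bp), mtd, the fly homologue of the oxidation resistance gene OXR1 (4721 bp), the LAMMER kinase gene Doa (4721 bp) and wge, which encodes a BAH-domain chromatin protein (4462 bp). A 4814 bp domain of this set lay in the 5S rRNA array described below.

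Both ends agreed within 200 bp between genotypes at 10 of 99 knockdown domains. CG44153 (fold 1.86 in the knockdown and 1.84 in the control) and mtd (1.86 in the knockdown and 1.87 in the control) were alike in fold too, while Adf1, which encodes a Myb-like transcription factor, read 3.27 in the knockdown and 2.35 in the control. The others were at Pgk, IPIP, wech, Srrm234, Tet, CG42340 and dome. At Srrm234 the control peak measured 2860 bp and so fell below the bound, beside 3067 bp in the knockdown.

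The widest control domains were the 15923 and 13003 bp stretches of the 5S rRNA array. Outside it, the widest spanned CG30183, Pal2, St3 and angel (2R:23686622-23696206, 9585 bp), where knockdown peaks covered 1697 bp. A 9154 bp control domain without a protein-coding gene (2R:6450985-6460138) had 7769 bp under knockdown H3K27ac. It was followed by a run of 5 genes led by CG4658 (8783 bp, with 4472 bp under knockdown peaks), and by E(Pc), a gene for a subunit of the Tip60 acetyltransferase complex (8056 bp, with 4245 bp). Srrm234 with CG7970, Vta1 and CG13920 (7798 bp) and Ets21C with rempA (6881 bp) were also among the 10 widest.

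Loci wide in the control alone must have less H3K27ac length in the knockdown, and loci wide in the knockdown alone more, by how they were chosen, so these differences are a description. The largest drop was at CG30183, which had 1.697 kb of H3K27ac in the knockdown and 9.585 kb in the control, a difference of -7.888 kb. CG43896 followed with 0.57 kb in the knockdown and 6.516 kb in the control. CG15099 had 1.124 kb in the knockdown and 6.8 kb in the control.

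Other loci in this set of 10 were CG8079 with Hex-C and Fs, Ets21C with rempA, Glt, CG43163, dpy and lva, with differences between -5.423 and -4.554 kb. Ets21C encodes an ETS-family transcription factor, rempA an intraflagellar transport protein, Glt a basement membrane glycoprotein, dpy a giant extracellular matrix protein and lva a Golgi coiled-coil protein. At Ets21C, H3K27ac covered 1.476 kb in the knockdown and 6.881 kb in the control. All 10 loci carried H3K27me3 peaks in the knockdown (0.54 kb at lva to 4.148 kb at Glt) and none in the control, as did most control domains: 523 of 545 met knockdown H3K27me3 and 495 met none in the control.

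Loci with more H3K27ac in the knockdown differed by less. The largest difference was at 18w, which encodes a Toll-family receptor: the 3966 bp knockdown domain was matched by 1447 bp of control peaks, a difference of 2.519 kb. CG13204 had 3.255 kb in the knockdown and 0.889 kb in the control. The zinc finger gene woc had 3.754 kb in the knockdown and 1.418 kb in the control at its knockdown domain, although it held a control domain of 3840 bp elsewhere. The set of least-covered knockdown domains was completed by CG34355 (1288 of 3270 bp under control peaks) and by sav, a Hippo pathway scaffold gene (1213 of 3000 bp).

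No knockdown H3K27ac peak met 9 control domains. The widest was at Mdr49 and Sans (4489 bp), an ABC transporter gene beside an Usher syndrome gene homologue, and it lay wholly under knockdown H3K27me3, with 863 bp of H3K27me3 in the control. The next were at shot, the fly spectraplakin (4242 bp), at the mRNA cap methyltransferase gene Cmtr1 (3706 bp), at Mybbp1A (3389 bp) and at the cell surface gene DIP-gamma (3295 bp). Knockdown H3K27me3 covered 543 bp at shot, 113 bp at Cmtr1, none at Mybbp1A and 1054 bp at DIP-gamma.

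The other 4 of these, narrower, lay at mei-41, which encodes the fly ATR kinase, at Pde11, at Cpsf100 with Slu7, and at Cdc27, an anaphase-promoting complex gene, with mei-P22. Among control domains with some knockdown H3K27ac, the least covered lay across CG44037, svp and CG3942 (173 of 4485 bp), then at trio (5.16%), CG5644 (6.57%), ATPCL (6.97%) and ash1 with Taf6 (265 of 3724 bp). svp encodes an orphan nuclear receptor that times neuroblast output, and ash1 a histone methyltransferase of the Trithorax group.

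**Figure D3:**
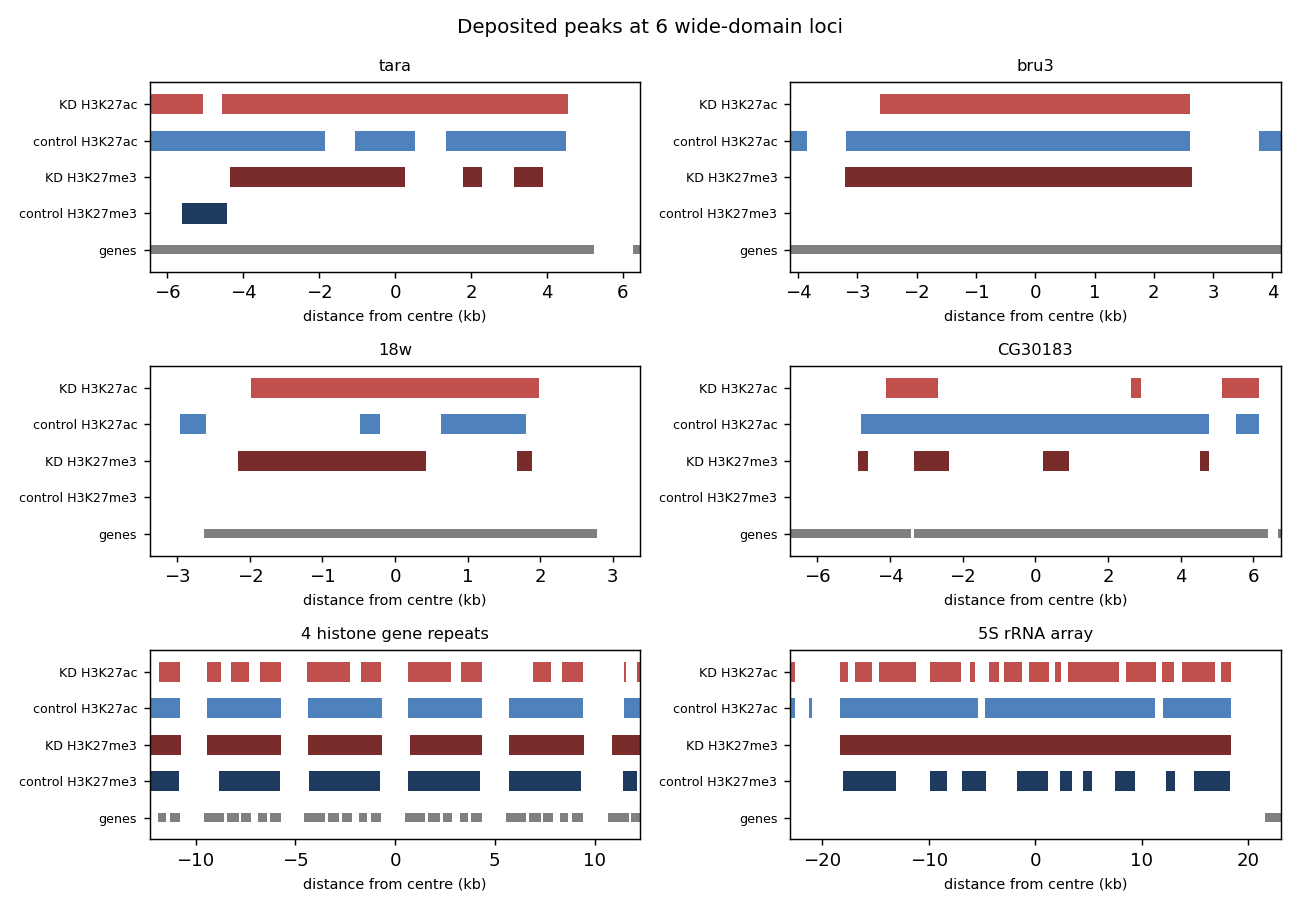
Deposited peaks at 6 loci, as distance in kb from the centre of the domain or group of domains drawn (x axis), with knockdown H3K27ac, control H3K27ac, knockdown H3K27me3, control H3K27me3 and protein-coding gene spans from top to bottom. At tara the widest knockdown domain meets 3 control peaks, and a separate knockdown peak lies beside it. At CG30183 the 9585 bp control domain meets 2 knockdown peaks, and at the histone repeats all 4 lists repeat with the same spacing.

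Wide domains touched few genes in the knockdown and more in the control. Gene spans came from a RefSeq table of the same assembly. They overlapped a domain at 163 of 13635 protein-coding genes in the knockdown (1.2%) and at 1042 in the control (7.64%). Of these, 71 genes had one in both genotypes, not always at the same place, 92 in the knockdown only and 971 in the control only. The control genes include 107 near-identical histone genes of the array described below. Without the histone and 5S arrays, 92 genes had a domain in the knockdown only and 868 in the control only. A peak of any width met 70.8% of the genes in the knockdown and 74.2% in the control. Longer genes were met more often: 0.745% of genes under 2 kb and 2.86% of genes over 50 kb in the knockdown, against 6.16% of genes under 2 kb and 12.1% of genes over 50 kb in the control. Requiring 50% of the gene or of the domain in the overlap left 135 genes in the knockdown (0.99%) and 829 in the control (6.08%).

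Domains over 1 gene and domains over several were both common. Of the knockdown domains 46 met 1 gene, 47 met 2 or more and 6 met none, and of the control domains 232 met 1, 294 met 2 or more and 19 met none. A domain lay wholly inside one gene at 41 of 99 in the knockdown (41.4%, 31.6 to 51.8%) and at 205 of 545 in the control (37.6%, 33.5 to 41.8%), a median of 1.439 kb from the nearer gene end in the knockdown and 1.56 kb in the control. Gene ends were denser in domains than in narrower peaks, at 0.393 a kb against 0.216 in the knockdown list and 0.494 a kb against 0.247 in the control list. The gene table gives no strand and no transcript starts, so promoters and gene 3′ ends were not separated.

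Among the gene lists, that of chromatin activators had the highest share of genes under control domains. Of 21 Trithorax group and acetylation genes, 2 had a knockdown domain (9.52%, against 1.2% of all genes) and 8 a control domain (38.1%, against 7.64%). Some chromatin genes were not in this list, so the counts depend on its choice. Of these, tara had domains in both genotypes, Tip60 and Bap170 in the knockdown only and E(Pc) in the control. The median gene in this list spans 8.638 kb, against 2.139 kb for all genes, and with the stricter overlap the counts were 1 in the knockdown and 6 in the control. The widest was at skd, which encodes Mediator subunit 13, with no wide domain in the knockdown (its widest peak there was 1.194 kb) and one of 6.213 kb in the control. Its partner kto had a widest peak of 0.824 kb in the knockdown and a domain of 5.254 kb in the control.

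Genes of the Brahma remodelling complex in this list were osa, mor and Snr1. At osa the widest knockdown peak was 2.801 kb, beside a control domain of 4.102 kb. At mor these were 2.314 kb in the knockdown and 3.805 kb in the control. Snr1 met a domain in each genotype, but these did not overlap each other. The 3.414 kb knockdown domain (3R:5467893-5471306) was shared with POLDIP2 and mRpL44. The 3.381 kb control domain (3R:5471984-5475364) was shared with CG45100, HDAC3 and Hcs. The chromodomain helicase gene kis had overlapping domains in both genotypes, of 3.985 kb in the knockdown and 4.269 kb in the control. The histone acetyltransferase gene Gcn5 had a widest peak of 0.94 kb in the knockdown and a domain of 3.145 kb in the control. Total H3K27ac over the gene was slightly longer in the knockdown at osa (14.21 kb, against 13.869 kb in the control). The same order held at mor (2.927 kb, against 2.924 kb) and Snr1 (1.171 kb, against 1.11 kb). It was shorter in the knockdown at kis, Gcn5, ash1, kto and skd.

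Of 27 Mediator subunits, 1 had a knockdown domain (3.70%, against 1.2% of all genes) and 7 a control domain (25.9%, against 7.64%). The knockdown domain was at MED18 (4.728 kb, shared with Pex5). Control domains included those at MED17 (6.272 kb) and MED27 (5.246 kb). skd and kto count in both lists. Of 18 Polycomb group genes none had a knockdown domain (1.2% of all genes had one) and 3 a control domain (16.7%, against 7.64%). These were jing (3.791 kb), Caf1-55 (3.682 kb) and Su(z)12 (3.199 kb), the last 2 for components of Polycomb repressive complex 2. Their widest knockdown peaks were 1.486 kb at jing, 1.235 kb at Caf1-55 and 0.332 kb at Su(z)12.

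Ribosomal, proteasome and respiratory genes had control domains at 5.41 to 12.5% of each list, around the 7.64% of all genes. Knockdown domains met 1.27 to 4.17% of each list, against 1.2% of all genes. Of 79 cytoplasmic ribosomal protein genes, 1 had a knockdown domain and 7 a control domain (8.86%), led by RpL31 (6.726 kb, of whose span control peaks covered 0.227 kb). With the stricter overlap these counts were 0 in the knockdown (against 0.99% of all genes) and 4 in the control (against 6.08% of all genes). RpS14a and RpS14b are neighbouring near-identical copies under the same control domain, so reads could be split between them. Of 72 mitochondrial ribosomal protein genes 2 (mRpL44 and mRpL9) had one in the knockdown and 9 in the control (12.5%), and of 48 proteasome genes 2 (Rpn3 and Rpn9) in the knockdown and 3 in the control (6.25%), or 2 in the knockdown and 1 in the control with the stricter overlap. Of 37 complex I genes 1 had a knockdown domain and 2 a control domain. H3K27ac covered more of the summed span in the knockdown for cytoplasmic ribosomal (47.3%, against 41.5% in the control) and proteasome genes (40.0%, against 38.9%). It covered less for mitochondrial ribosomal (44.2%, against 45.1%) and complex I genes (25.4%, against 37.7%). A peak of any width met 70 of the 79 cytoplasmic ribosomal genes in the knockdown and 65 in the control. No cell cycle gene of 21 had a wide domain in either genotype, against 1.2% of all genes in the knockdown and 7.64% in the control.

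**Figure D4:**
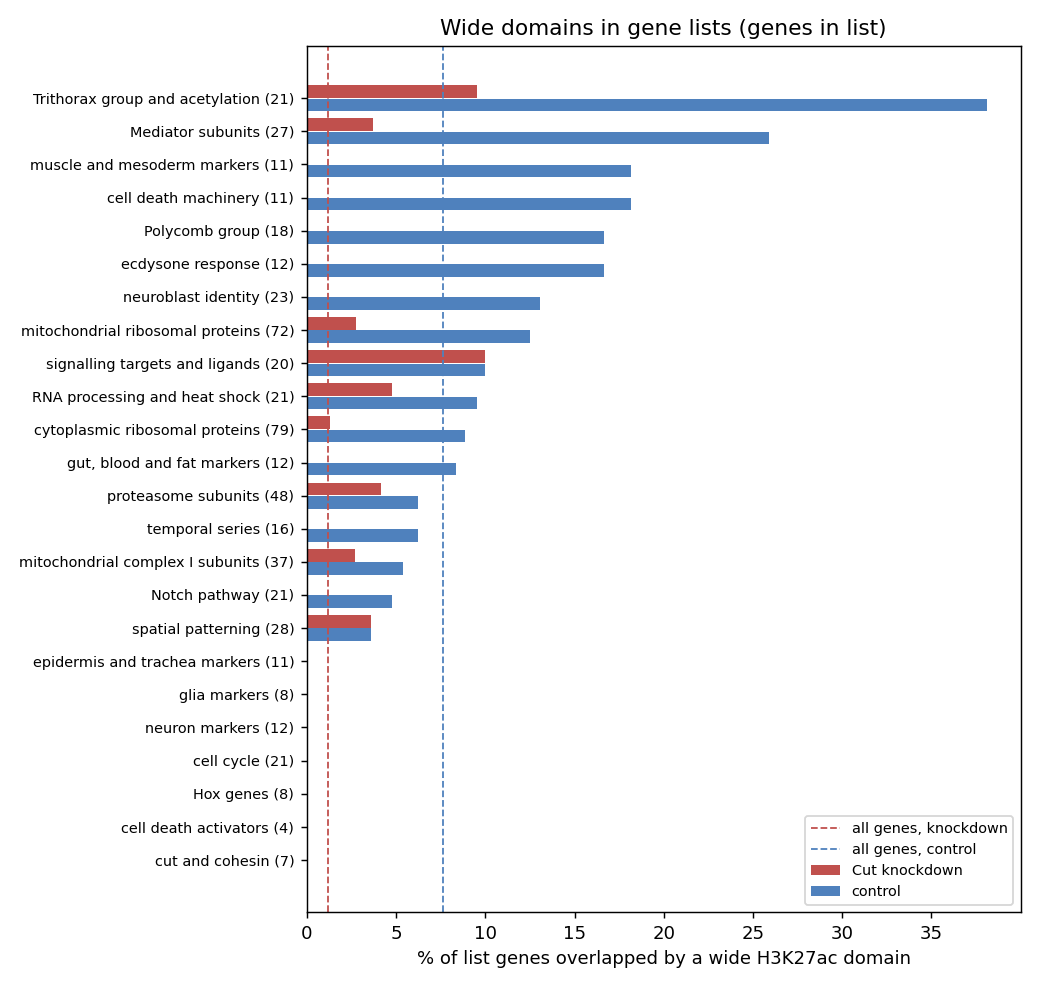
Share of the genes of each list overlapped by a wide H3K27ac domain (x axis, %), in the knockdown (red, upper bar) and the control (blue, lower bar), with the number of genes in parentheses and the shares of all genes as dashed lines at 1.2% and 7.64%. The Trithorax group and acetylation list reaches 9.52% in the knockdown and 38.1% in the control, and 7 lists at the bottom have no domain in either.

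Of 23 neuroblast identity genes none had a knockdown domain (1.2% of all genes had one) and 3 a control domain (13.0%, against 7.64% of all genes). These were SoxN (widest peak 2.139 kb in the knockdown, domain of 3.281 kb in the control), brat (1.88 kb in the knockdown, 3.061 kb in the control) and nerfin-1 (1.119 kb in the knockdown, 3.043 kb in the control). With the stricter overlap 2 of the 23 genes had a control domain, against 6.08% of all genes. The driver's own gene wor had a widest peak of 2.042 kb in the knockdown and 2.819 kb in the control. dpn read 0.168 kb in the knockdown and 0.502 kb in the control, and ase 0.472 kb in the knockdown with no peak in the control. insc read 1.074 kb in the knockdown and 2.453 kb in the control. Like ase, pros (2.897 kb in the knockdown, 1.665 kb in the control) and mira (2.4 kb in the knockdown, 1.146 kb in the control) had the wider peak in the knockdown. Total H3K27ac was also longer in the knockdown over brat (9.327 kb, against 6.901 kb in the control) and nerfin-1 (1.119 kb, against 0.57 kb in the control).

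Markers of other embryonic cell types gave no knockdown domain. Of all genes, 1.2% had one, and 7.64% had a control domain. Control domains met none of 12 neuron, 8 glia and 11 epidermis and trachea genes, but 2 of 11 muscle and mesoderm genes (sls, 5.51 kb, and twi, 4.31 kb) and 1 of 12 gut, blood and fat genes (GATAe, 3.615 kb). H3K27ac covered 9.79% of the summed span of the muscle and mesoderm genes in the knockdown and 19.3% in the control, beside 14.0% in the knockdown and 20.1% in the control for all genes. Epidermis and trachea genes were at 12.6% in the knockdown and 22.1% in the control, gut, blood and fat genes at 15.1% in the knockdown and 22.3% in the control, and glia genes at 11.9% in the knockdown and 19.7% in the control. Neuron genes were at 8.64% in the knockdown and 10.1% in the control, and the 14 neuroblast markers at 21.4% in the knockdown and 19.8% in the control. The part of such cells in the difference between genotypes was not tested.

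In the signalling list, spi, an EGF receptor ligand gene (3.395 kb in the knockdown, 3.931 kb in the control), and dome, the JAK/STAT receptor gene (3.136 kb in the knockdown, 3.143 kb in the control), had domains in both genotypes. Among spatial patterning genes only prd, a pair-rule gene, had a knockdown domain (3.154 kb, against a widest control peak of 1.104 kb), and ptc, the Hedgehog receptor gene, a control domain (3.482 kb). Other list genes with control domains were svp, neur, the hormone receptor genes Hr38 and EcR, and the inhibitor-of-apoptosis genes Diap2 (6.057 kb) and Bruce (4.015 kb). The Diap2 domain was shared with Mlf and bug. Total H3K27ac over the gene was longer in the knockdown at neur (4.971 kb, against 2.646 kb in the control) and Diap2 (1.602 kb, against 1.47 kb in the control). It was shorter in the knockdown at svp, Hr38, EcR and Bruce. With the stricter overlap, the control counts were 0 in the list with svp and 0 in the list with neur. They were 2 of 12 genes in the list with Hr38 and EcR and 1 of 11 in the list with Diap2 and Bruce, against 6.08% of all genes.

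None of 7 cut and cohesin genes, 8 Hox genes and 4 cell death activators had a wide domain. Of all genes, 1.2% had one in the knockdown and 7.64% in the control, so lists this short may well hold none. At ct, which encodes Cut, H3K27ac covered 2.422 kb in the knockdown and 1.006 kb in the control, with widest peaks of 1.06 kb in the knockdown and 0.469 kb in the control. Peaks do not measure the knockdown of Cut. Of the death genes, hid had 0.771 kb in the knockdown and 1.676 kb in the control, grim 0.146 kb in the knockdown and none in the control, and rpr and skl no H3K27ac peak.

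H3K27me3 covered much of the wide domains in the knockdown and little in the control. Knockdown H3K27me3 lay over 57.9% of the bases of knockdown domains (41.3% for narrower knockdown peaks), and control H3K27me3 over 5.15% of the bases of control domains (4.43% for narrower control peaks). The control order of wide over narrower rested on the histone and 5S arrays described below: without them it was 1.18% for domains and 4.42% for narrower peaks. The same contrast held with the domains held fixed: control domains had 50.8% of their bases under knockdown H3K27me3, and knockdown domains 4.09% under control H3K27me3. The knockdown H3K27me3 list was itself much the longer, with 18886 peaks covering 17.7 Mb within the limits, against 4317 peaks and 3.81 Mb in the control. With that list trimmed, lowest -log10 q first, until it covered as much as the control list, the 57.9% became 9.45%, and with H3K27me3 peaks of -log10 q of 2 or more 22.1%. Over the summed spans of all protein-coding genes the cover was 15.9% in the knockdown and 2.37% in the control. The labels name one catalogue number for both antibodies, and whether the antibodies differed was not tested.

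Counted by domain, a knockdown H3K27me3 peak met 93 of 99 knockdown domains (93.9%, 87.3 to 97.7%, against 52.1% of knockdown peaks of any width) and 523 of 545 control domains (96.0%, 94.0 to 97.5%, against 56.4%). A control H3K27me3 peak met 8 of 99 knockdown domains (8.08%, 3.55 to 15.3%, against 5.8%) and 50 of 545 control domains (9.17%, 6.89 to 11.9%, against 7.92%). Without the arrays these were 4 of 95 knockdown domains (4.21%, against 5.56% of narrower knockdown peaks) and 25 of 520 control domains (4.81%, against 7.89% of narrower control peaks). At least 50% under knockdown H3K27me3 were 61 knockdown domains (61.6%, 51.3 to 71.2%, against 38.7%) and 267 control domains (49.0%, 44.7 to 53.3%, against 40%), and 12 knockdown domains and 32 control domains lay wholly under it. At least 50% under control H3K27me3 were 4 knockdown domains (4.04%, against 4.01% of knockdown peaks of any width) and 27 control domains (4.95%, against 5.04% of control peaks of any width).

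The share of bases under knockdown H3K27me3 was higher in the wide classes of both lists than in the narrow ones. For knockdown H3K27ac peaks it was 35.6% of bases below 0.5 kb, 48.8% at 2 to 3 kb, 54.5% at 3 to 4 kb and 61.4% at 4 to 5 kb, and for control H3K27ac peaks 36.2%, 44.8%, 50.1% and 49.9% in the same classes. Without the histone and 5S arrays, control peaks were at 46.5% at 3 to 4 kb and 49.6% at 4 to 5 kb. Knockdown peaks were then at 52.7% at 3 to 4 kb and 58.5% at 4 to 5 kb. The 84.6% at 5 kb or more in the knockdown rests on 4 domains and the 61.4% at 4 to 5 kb on 16.

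**Figure D5:**
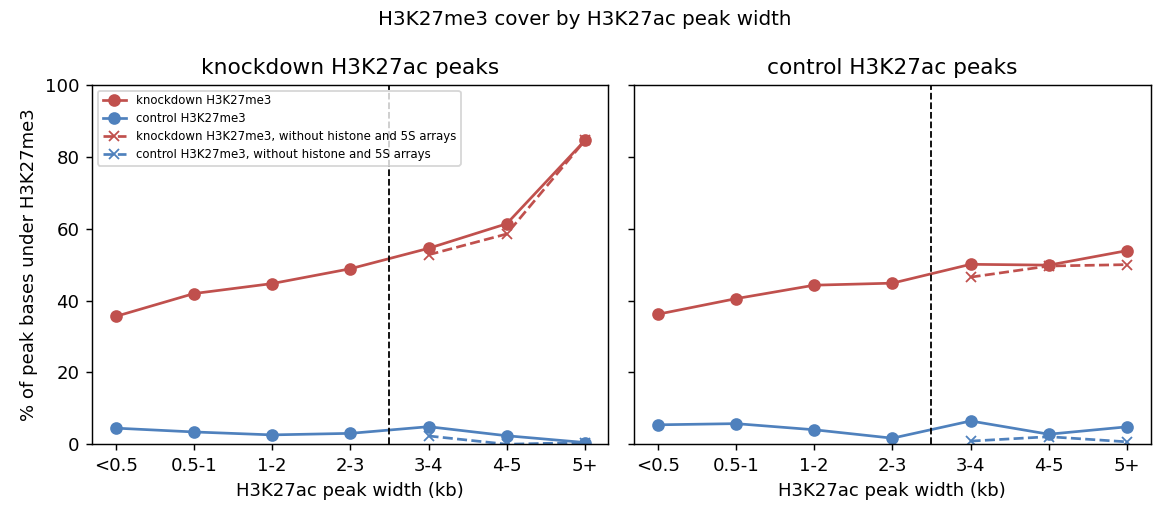
Share of H3K27ac peak bases under H3K27me3 (y axis, %) by peak width (x axis, kb), for knockdown H3K27ac peaks (left) and control H3K27ac peaks (right), with knockdown H3K27me3 in red and control H3K27me3 in blue. Dashed lines with crosses leave out the histone and 5S arrays, and the vertical line marks 3 kb. Knockdown H3K27me3 lies between 35.6 and 84.6% in the left panel and between 36.2 and 53.9% in the right, above control H3K27me3 in every class.

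The bases acetylated in both lists were the more often covered by knockdown H3K27me3. In knockdown domains it lay over 61.6% of the bases also under control H3K27ac and 46.4% of the bases that were not. In control domains these shares were 57.8% of the bases also under knockdown H3K27ac and 44.2% of the rest. Narrower peaks showed the same order, at 50.1% and 30.5% in the knockdown list and 49.3% and 37.5% in the control list. Knockdown domains with a wide control counterpart had 68.4% of their bases under knockdown H3K27me3 and those without one 48.5%, and control domains with a wide knockdown counterpart had 67.3% and those without one 48.9%.

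Ranked by bases under knockdown H3K27me3, a count that width itself bounds, tara came first among knockdown domains. The mark covered 5921 of 9097 bp at tara, where control H3K27me3 covered 120 bp, and all 5227 bp at bru3, 5057 bp at CG44153, 4814 bp in the 5S array and 4799 bp at CG42340. Apart from tara and the 5S array, these had no control H3K27me3. By share of bases tara stood at 65.1%, while narrow domains such as those at Oseg2, prd, Bap170 and Rfx were wholly covered. Within the knockdown, acetylation and trimethylation peaks were therefore called over the same kilobases at these loci.

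Long stretches of knockdown H3K27me3 without any in the control were also seen in control domains. Knockdown H3K27me3 covered 7099 bp of the 2R stretch without a gene, 6363 bp of the CG4658 domain, 6146 bp at Srrm234 and 6009 bp at E(Pc). Across the 599 loci it covered 1218.21 kb in the knockdown and 116.262 kb in the control, and was longer in the knockdown at 568, shorter at 6 and equal at 25. Over loci of joined H3K27ac peaks of any width, most of them short, it was longer in the knockdown at 48.8%. At 54 of 99 knockdown domains there was no control H3K27me3 peak while at least 50% of the bases lay under the knockdown mark, against 34.7% of knockdown peaks of any width.

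No knockdown H3K27me3 was called at 6 knockdown domains, among them those at sba, at msk with Arp3, at CG46301, at Srrm234 with CG7974, and in a 2R stretch without a gene. Of the 6, only CG46301 had control H3K27me3 (709 bp). Its 3291 bp knockdown domain thus went with the reverse order of the H3K27me3 lists.

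Control H3K27me3 in control domains was largely that of 2 repeated gene arrays. The histone gene array (2L:21416953-21541681) holds 111 annotated histone genes in near-identical repeats, so where a read came from is uncertain there. It had 1 knockdown domain (3532 bp, fold 1.98) and 22 control domains, which measured 3067 to 4217 bp at a median step of 5042 bp and covered 107 histone genes. Each of the 22 carried control H3K27me3, over 85.1% of their bases, and knockdown H3K27me3 lay over 98.9%. These 22 domains held 61.3% of all control H3K27me3 in control domains.

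The knockdown peaks of the histone array were shorter than the control peaks. Over the whole array H3K27ac covered 67.998 kb in the knockdown and 85.172 kb in the control, and H3K27me3 85.266 kb in the knockdown and 71.346 kb in the control. Knockdown peaks covered 79.5% of the bases of the 22 control domains, in 1 to 3 pieces each.

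The 5S rRNA array (2R:19729562-19766278, 100 annotated genes) had 3 domains in each genotype, 11.308 kb in all in the knockdown and 35.311 kb in the control. H3K27ac covered 26.905 kb of the array in the knockdown and 35.297 kb in the control, and H3K27me3 36.663 kb in the knockdown and 19.825 kb in the control. The control domains held 17.0% of all control H3K27me3 in control domains.

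Without both arrays, 95 knockdown domains had 56.1% of their bases under knockdown H3K27me3 and 520 control domains had 1.18% under control H3K27me3 and 48.1% under knockdown H3K27me3. Only 25 of the 520 met a control H3K27me3 peak, 4 with at least 50% of their bases, and 495 had more knockdown than control H3K27me3. The most control H3K27me3 outside the arrays was in the svp domain, at 3514 bp, where knockdown H3K27me3 covered 4399 of 4485 bp and knockdown H3K27ac 173 bp. Among knockdown domains the most was at Rfx (2668 of 3376 bp) and prd (2471 of 3154 bp), both wholly under knockdown H3K27me3.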

How the data were processed

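H3K27ac and H3K27me3 were profiled by chromatin immunoprecipitation in 1 Cut knockdown and 1 control library each. Per the labels' protocols, chromatin was broken up by micrococcal nuclease (15 U) and then by sonication (3 min), 1 µg of H3K27ac or 2 µg of H3K27me3 antibody was used, input DNA was the control, and single ends were sequenced. Micrococcal nuclease cuts open chromatin more readily, which can alter fragment yield. The submitters' processing notes name FastQC, Bowtie2, MACS2, SICER and dm6, and their versions and roles are not given in the sources used. The files are peak lists in MACS2 broad format, called by the authors for each library.

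The deposited score of each peak, its fold ratio over background and its -log10 p and -log10 q are the authors' values. The lowest -log10 q was 1.01 in every list. Fold was used only to describe or filter peaks within a list. Starts were turned from 0-based to 1-based. Peaks were merged per list for covered length, overlap needed 1 bp, and gene spans were those of the RefSeq table for release 6, used for 13635 protein-coding genes, of which 1 has no symbol. Coverage code was tested on simulated data, with 0 of 1550 checks wrong. Python 3.11.15, pandas 2.3.3, numpy 2.4.6, scipy 1.17.1 and matplotlib 3.10.9 were used.

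The members and the gene lists were chosen with earlier results of these data known. The ribosomal, Mediator, proteasome and complex I lists, the 200 bp edge comparison, the comparison of the 99 widest peaks and the values without arrays were added after the data were seen. Named genes were those under the 10 widest domains, under the 5 least covered and the 5 with most H3K27me3 of the same genotype, at the 10 largest differences of H3K27ac length, at the width bound, ct, rpr, grim, hid and skl, and up to 4 list members per genotype. Others were named after their values were seen. Some named items are not reported here.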

Additional observations from a re-analysis of the deposited data

How the results depend on the processing

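Of 66 values under alternative settings, 36 stayed within 1.5 times the reported count or within the interval of the reported share, and 30 moved further. For H3K27me3 cover the intervals used were 47.2 to 67.5% in knockdown domains and 3.44 to 7.34% in control domains. Shares of bases are not counts, so these intervals are only a rough guide. The knockdown cover of 67.4% at the 4000 bp bound lay just inside. Some of the 36 could not move. Taking the 99 widest peaks of each list leaves the knockdown domains unchanged, and trimming the longer H3K27me3 list leaves the control list unchanged. A 2000 bp bound gave 527 knockdown and 1682 control domains, 398 genes with a domain in the knockdown only and 1987 in the control only, 93.6% of control domains with knockdown H3K27ac and 3.23% of control domain bases under control H3K27me3. A 4000 bp bound gave 20 knockdown and 207 control domains, with 17 genes in the knockdown only and 403 in the control only. With H3K27ac peaks of -log10 q of 2 or more there were 47 knockdown and 137 control domains, overlap fell to 59.6% in the knockdown and 76.6% in the control, control H3K27me3 cover was 17.5% and 307 genes were in the control only. With a fold of 2 or more, 225 control domains were left, overlap of knockdown domains was 58.0%, control H3K27me3 cover 1.54% and genes in the control only 427. Taking 99 peaks of each list gave 100% overlap of control domains and 171 genes in the control only. Requiring 50% cover gave 84.8% overlap of knockdown and 47.2% of control domains. One gene per domain gave 57 genes in the knockdown only and 478 in the control only. H3K27me3 peaks with -log10 q of 2 or more covered 22.1% of knockdown domain bases, and the knockdown H3K27me3 list trimmed to the control's length covered 9.45%. Leaving out the arrays, added after the data were seen, gave 1.18% control H3K27me3 cover. The counts of fewer domains follow from the stricter bounds, and for the other moves the cause was not tested. No library could be left out with 1 per group. No paired analysis was possible because each mark had 1 library per genotype. Depth is unknown and limits every covered length.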

Other observations

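H3K27ac peaks of 3000 bp or more also lay outside the arm limits, in the stretches next to the centromeres and on chromosomes 4 and Y. There were 50 of 149 such peaks in the knockdown and 120 of 665 in the control. On 3R they numbered 23 in the knockdown and 30 in the control, and on X 14 in the knockdown and 18 in the control. On 3L there were 4 in the knockdown and 32 in the control. Chromosome Y had 3 in the knockdown and 16 in the control.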
